A study of Mus musculus with 6 samples.

Results

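Lpl, Cd36, Slc27a1, Fabp4, Fabp5 and Acsl1, 6 of the 13283 genes of the expression table, are mouse genes of fatty acid uptake and activation. They were chosen by name for their place in that route, with earlier results of these data known. All 6 had lower mRNA levels in MICT1 KO than in scrambled-control (Scr) brown adipocytes after forskolin, and in all 6 the 3 MICT1 KO libraries lay below the 3 Scr libraries. As ratios of the group means, the falls ran from 1.54-fold for Slc27a1, through 2.96-fold for Fabp5 and 5.40-fold for Lpl, to 9.77-fold for Fabp4, 13.7-fold for Acsl1 and 17.7-fold for Cd36. Among all 12507 genes tested, 28.3% were called lower and 31.2% had every MICT1 KO library below every Scr library. A fall of at least 2-fold, which 5 of the 6 genes had, was called in 5.76% of the genes tested.

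RNA was sequenced from an immortalized line of mouse brown preadipocytes (BAT cells) carrying Cas9, differentiated in culture, in which sgRNAs either targeted MICT1 (C16orf74, 1190005I06Rik in mice), a microprotein, or were scrambled. There were 3 libraries of each group, and all 6 cultures received 10 µM forskolin, an activator of adenylyl cyclase, for 6 h at day 6 of differentiation. The cells were pools of 1 line sorted for GFP, and the labels do not say from which of the MICT1 sgRNA pools a library came, or that the cultures were separate, so p-values measure only the spread between these libraries. MICT1 mRNA was not analysed here, and its targeting was therefore not checked in these values.

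Fat cells take up fatty acids along a chain of steps. Lipoprotein lipase, made by the fat cell, splits triglyceride in circulating lipoproteins, and the fatty acids set free cross the plasma membrane with the help of CD36 and of fatty acid transport proteins, are carried in the cytosol by fatty acid binding proteins and are coupled to coenzyme A by acyl-CoA synthetases. Only the CoA ester can be stored as triglyceride or burned in mitochondria, and in brown fat this supply feeds heat production.

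Deposited values are a normalized signal, that is, estimated reads of a gene over a size factor of its library, which lay between 0.949 and 1.08. Multiplied back, the libraries held between 15445728 and 17925587 reads. Every gene had a value above 0 in every library, and all 12 values of the 6 genes below 1000 were whole reads within 0.01. The ribosomal RNA precursor Rn45s took 1.92% of the signal in Scr replicate 2 and between 0.507% and 0.831% in the other 5 libraries.

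The first step is lipolysis outside the cell. Lpl, which encodes lipoprotein lipase (RefSeq on GRCm38, chr8:68880555-68906932, plus strand), had a normalized signal of 53808, 50279 and 61031 in the 3 Scr libraries. The signal was 10307, 8872 and 11373 in the 3 MICT1 KO libraries. The lowest Scr library was well above the highest MICT1 KO library. The mean went from 55039 ± 5481 to 10184 ± 1255 (SD, n = 3), which left 18.5% of the Scr level. On the log2(value + 1) scale, used for all fold changes, Lpl fell by 2.44 (SE 0.077, limma-trend adjusted p = 2.85e-16).

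CD36 and the fatty acid transport proteins act at the membrane. Cd36, the scavenger receptor that binds long-chain fatty acids (chr5:17781690-17888959, minus strand), had a normalized signal of 3567, 3506 and 4190 in Scr. In MICT1 KO libraries its signal was 177, 144 and 313. No other member lost a greater share: 5.64% of the mean Scr level was left. The log2 fold change of Cd36 was -4.22 (SE 0.17, limma-trend adjusted p = 1.10e-14), with a 95% confidence interval from -4.57 to -3.87. The MICT1 KO libraries differed among themselves more for Cd36 than for any other member, with a coefficient of variation of 42.3% against 10.1% in Scr, and MICT1 KO replicate 3 was the high library. Of all genes tested, 29, or 0.232%, had a lower log2 fold change than Cd36.

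Slc27a1 encodes FATP1, the transport protein known for its response to insulin in fat and muscle (chr8:71568728-71587307, plus strand). Its normalized signal was 159, 171 and 231 in Scr and fell to 137, 121 and 107 in the libraries of MICT1 KO cells. The groups did not overlap, but the highest MICT1 KO library and the lowest Scr library were close. The log2 fold change was -0.61 (SE 0.18, limma-trend adjusted p = 0.00634). The call rested on Scr replicate 3: without it the log2 fold change was -0.45 and the adjusted p 0.0592. Its fall was the smallest of the 6.

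Fatty acid binding proteins take over inside the cell. Fabp4, the binding protein of mature fat cells also called aP2 (chr3:10204342-10208616, minus strand), had a normalized signal of 56242, 48661 and 55126 in Scr. In MICT1 KO libraries the signal was 5520, 3862 and 7002. The groups were far apart, and 10.2% of the Scr mean was left. Fabp4 fell by 3.33 on the log2 scale (SE 0.12, limma-trend adjusted p = 3.98e-15). As for Cd36, the MICT1 KO libraries were more spread than the Scr libraries, with coefficients of variation of 28.8% and 7.67%.

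Fabp5, the epidermal type of binding protein, which many cell types share (chr3:10012585-10016610, plus strand), had a normalized signal of 3126, 2980 and 3155 in Scr and of 1044, 1008 and 1072 in MICT1 KO libraries. Its libraries were the most even of the 6 genes, with a coefficient of variation of 3.03% in Scr and 3.06% in MICT1 KO. The log2 fold change was -1.57 (SE 0.061, limma-trend adjusted p = 7.59e-15). The transcripts of Gm14328 and Gm6166 match Fabp5 over at least 200 bases at 95% identity or more, and neither gene was analysed here. How reads were divided among these copies is not given in the sources used here, so the level of Fabp5 is less certain than that of the other members, for which no such copy was found.

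Acyl-CoA synthetases close the chain. Acsl1, the main long-chain acyl-CoA synthetase of fat cells (chr8:46471037-46536051, plus strand), had a normalized signal of 10695, 8800 and 11729 in Scr. In MICT1 KO libraries the signal was 812, 680 and 794. All 3 MICT1 KO libraries lay close together and far below Scr, at 7.32% of the Scr mean. The log2 fold change was -3.76 (SE 0.085, limma-trend adjusted p = 1.20e-18), the lowest adjusted p among the 6 genes.

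**Figure D1:**
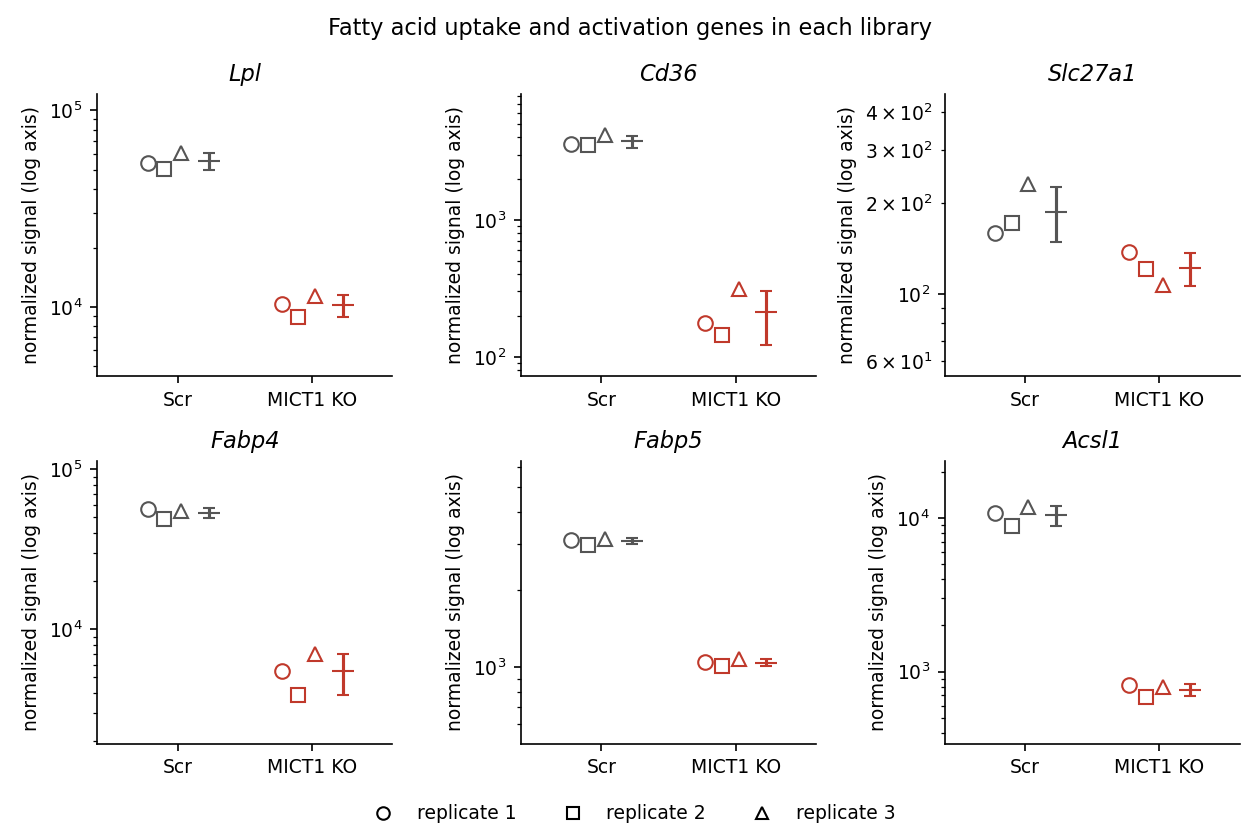
Normalized signal (log axes, each with its own range) of the 6 genes in the 3 Scr (grey) and 3 MICT1 KO (red) libraries, with circles, squares and triangles for replicates 1, 2 and 3 and the mean ± SD (n = 3) to the right. The groups do not overlap in any of the 6 genes, and they lie closest for Slc27a1, with 159 as the lowest Scr and 137 as the highest MICT1 KO value.

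To compare levels between genes, the signal was expressed per kilobase of transcript and per library total (RPKM). With the longest protein-coding transcript of each gene as its length, the mean RPKM in Scr was 3640 for Fabp4, 817 for Lpl, 191 for Fabp5, 163 for Acsl1, 67.5 for Cd36 and 4.09 for Slc27a1. Fabp5 and Acsl1 overlapped between libraries, with Fabp5 at 182 to 197 and Acsl1 at 136 to 184, and the other neighbours in this order did not overlap. In MICT1 KO libraries the order was the same, with 374 RPKM for Fabp4, 152 for Lpl, 64.7 for Fabp5, 12.0 for Acsl1, 3.82 for Cd36 and 2.67 for Slc27a1. Here Fabp5 and Acsl1 were apart, while Cd36, at 2.61 to 5.67 RPKM, overlapped Slc27a1, at 2.35 to 2.99 RPKM. Cd36 ranked between 942 and 1175 among 12520 genes by RPKM in Scr and between 7802 and 9368 in MICT1 KO libraries.

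Fabp4 ranked between 1 and 2 among 12520 genes by RPKM in the 3 Scr libraries and between 88 and 178 in the MICT1 KO libraries. Lpl ranked between 24 and 43 in Scr and between 322 and 428 in MICT1 KO libraries. Both were thus still among the more abundant mRNAs of the MICT1 KO cells. The order by RPKM rested on the length used: with the union of all annotated exons, which holds retained introns, the Scr means were 727 for Fabp4, 321 for Lpl, 63.9 for Cd36, 60.7 for Acsl1, 52.9 for Fabp5 and 1.96 for Slc27a1. With the longest transcript of any type Lpl, at 817 RPKM, was above Fabp4, at 771.

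The other genes of each family showed where the loss of a member changed the make-up of its family. Among binding proteins, Fabp4 held 94.6% ± 0.23 of the summed Fabp4, Fabp5 and Fabp7 RPKM in Scr and 82.0% ± 4.14 in MICT1 KO libraries (SD, n = 3 each), while Fabp5 went from 4.98% to 14.8%. The Fabp4 share rested on the length used. With the union of exons it was 91.8% in Scr and 72.3% in MICT1 KO libraries, and with the longest transcript of any type 91.1% and 69.6%. The ratio of Fabp4 to Fabp5 signal was between 16.3 and 18.0 in Scr and between 3.83 and 6.53 in MICT1 KO libraries. Fabp7, the brain type, had a mean normalized signal of 237 ± 27.5 in Scr against 193 ± 5.75 in MICT1 KO libraries (SD, n = 3 each), a change that did not pass the test (log2 fold change -0.29, limma-trend adjusted p = 0.0857).

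Among the synthetases, Acsl1 was the leading family member in Scr, with 55.4% ± 3.38 (SD, n = 3) of the summed Acsl RPKM, and Acsl4, a synthetase that prefers arachidonic acid, held 36.0%. In MICT1 KO libraries Acsl1 held 9.82% ± 1.08 (SD, n = 3) and Acsl4 62.0%. Acsl4 itself fell (log2 fold change -0.48, limma-trend adjusted p = 2.81e-07), by less than Acsl1. Acsl5 and Acsl3 rose, with log2 fold changes of 0.57 (limma-trend adjusted p = 5.43e-07) and 0.32 (adjusted p = 0.00349). Acsl5, with a normalized signal of 954, 953 and 890 in Scr and of 1462, 1361 and 1344 in MICT1 KO libraries, was above Acsl1 in RPKM in MICT1 KO cells (20.1 against 12.0) and below it in Scr cells (13.4 against 163). The summed RPKM of the 5 Acsl genes was between 264 and 318 in Scr and between 120.02 and 125 in MICT1 KO libraries. Acsl6 had a mean signal of 3.26 in Scr and 14.3 in MICT1 KO libraries and was too low to be tested. With the union of exons as length, Acsl4 led in both groups, at 55.5% in Scr and 67.9% in MICT1 KO libraries.

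Among transport proteins, Slc27a4 (FATP4) was the most abundant by RPKM, with 58.4% of the summed Slc27a RPKM in Scr and 52.2% in MICT1 KO libraries. The share of Slc27a1 was 12.2% and 10.3%. Slc27a4 also fell (log2 fold change -0.54, limma-trend adjusted p = 2.94e-06), to 68.9% of its Scr mean, close to the 65.0% of Slc27a1. Slc27a3 did not pass the test, with a mean normalized signal of 364 ± 36.6 in Scr against 358 ± 35.3 in MICT1 KO libraries (SD, n = 3 each). The ratios of members to a relative were compared in 9 pairs by a two-sided exact permutation test, which with 3 against 3 libraries cannot give p below 0.1. The 7 ratios of Fabp4, Acsl1 and Lpl each reached that smallest p (adjusted p = 0.129 over the 9 pairs), while Slc27a1 gave an exact p of 0.2 against Slc27a3 and of 0.7 against Slc27a4.

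**Figure D2:**
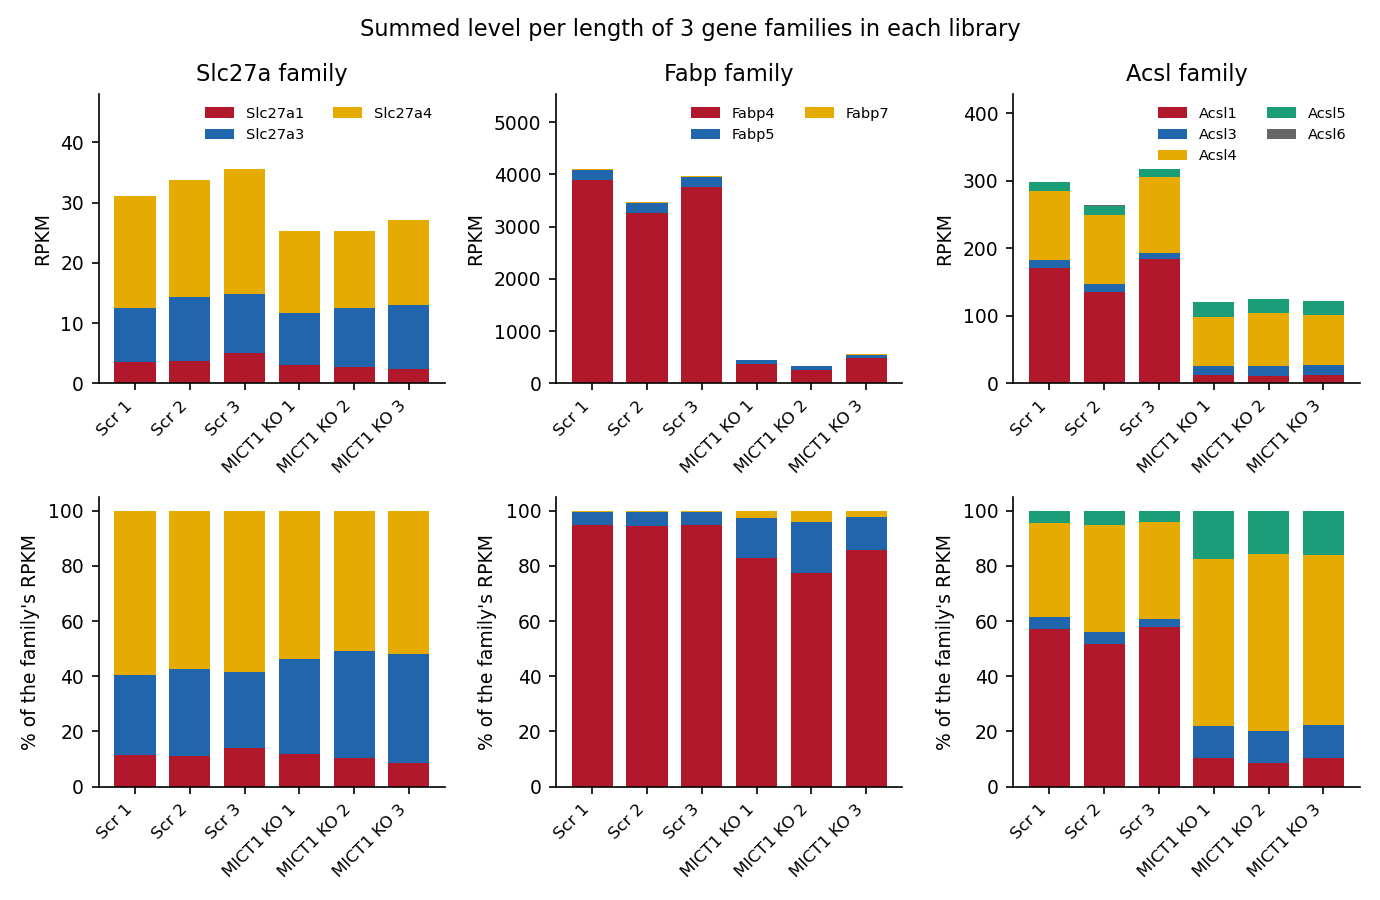
Stacked bars of the Slc27a, Fabp and Acsl families in each of the 6 libraries, as RPKM with the longest protein-coding transcript (upper row) and as a percentage of the family's summed RPKM (lower row). Acsl1 goes from 55.4% of its family on average in Scr to 9.82% in MICT1 KO libraries and Fabp4 from 94.6% to 82.0%, while Slc27a1 is a minor member in both groups.

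Other genes of the route went both ways. Outside the 6 genes, 52 genes of 5 lists (lipoprotein lipolysis, membrane uptake, intracellular binding, CoA activation and acyl-CoA thioesterases) were tested. Of these, 23 fell and 14 rose, or 44.2% and 26.9%, beside 28.3% called lower and 28.5% called higher among all genes tested. The lists, too, were chosen with earlier results of these data known. Their median log2 fold change was -0.19, against -0.01 for all genes tested and -2.88 for the 6 genes. Falls of at least 2-fold were called in 10 of the 52 and rises of at least 2-fold in 4, beside 5.76% and 7.99% of all genes tested.

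Of the 14 other genes tested for lipoprotein lipolysis, 6 fell and 5 rose. Angptl4, which encodes a secreted inhibitor of lipoprotein lipase, rose while its target fell, with a normalized signal of 2755, 3175 and 2895 in Scr and of 4489, 4285 and 5190 in MICT1 KO libraries (log2 fold change 0.66, limma-trend adjusted p = 6.06e-08). The groups did not overlap, and the ratio of Lpl to Angptl4 signal went from between 15.8 and 21.1 to between 2.07 and 2.30. Angptl2, a secreted protein of the same family, and Lrp1, an endocytic receptor for lipoprotein remnants, rose with log2 fold changes of 0.91 (limma-trend adjusted p = 3.55e-08) and 0.58 (adjusted p = 2.71e-08). Lipg, the endothelial lipase, fell by 1.93 on the log2 scale from a mean signal of 39.0 to 10.3 (limma-trend adjusted p = 0.00137), and Apoe, an apolipoprotein, by 1.89 (adjusted p = 2.01e-08). Lmf1, needed for the folding of lipoprotein lipase, did not pass the test at a mean signal of 221 in Scr and 258 in MICT1 KO libraries (limma-trend adjusted p = 0.164). Gpihbp1, the anchor of the lipase on capillaries, was not analysed here.

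Of the 11 other genes tested for membrane uptake, 7 fell and 3 rose. Ffar4, a receptor that senses long-chain fatty acids, fell beyond any member, a difference that was not tested. Its normalized signal was 1051, 1094 and 1181 in Scr, against 27.6, 13.7 and 48.7 in MICT1 KO libraries (log2 fold change -5.33, limma-trend adjusted p = 5.22e-13). Slc22a4, a carrier of organic cations, fell by 1.11 (limma-trend adjusted p = 2.61e-05). Mfsd2a, a transporter of lysophospholipids, rose by 1.60 at a low level, from a mean signal of 13.8 to 40.8 (limma-trend adjusted p = 0.00267). Got2, the mitochondrial aminotransferase also described as a plasma membrane fatty acid binding protein, rose by 0.39 (limma-trend adjusted p = 4.88e-06). Zdhhc4, a palmitoyltransferase, rose by 0.26 (limma-trend adjusted p = 0.0359). Zdhhc5, of the same gene family and named after its values were seen, fell by 0.23 (limma-trend adjusted p = 0.00126). Its mean signal in Scr was 3200, against 387 for Zdhhc4.

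Of the 10 other genes tested for intracellular binding, 3 fell, 2 rose and 5 did not pass the test. Scp2, a carrier of sterols and fatty acyl-CoA, fell by 2.22 on the log2 scale to 21.4% of its Scr mean (limma-trend adjusted p = 4.17e-17). Dbi fell by 1.34 to 39.6% of its Scr mean (limma-trend adjusted p = 3.13e-11) and Acbd6 by 0.25 (adjusted p = 0.0107). Both were named after their values were seen. Crabp1, a binding protein for retinoic acid, rose by 1.86 from a mean signal of 7.88 to 31.1 (limma-trend adjusted p = 0.00160), and Acbd3, which binds acyl-CoA at the Golgi, by 0.31 (adjusted p = 0.00114).

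Of the 8 other genes tested for CoA activation, 4 fell and 3 rose. Acsf2, a mitochondrial synthetase of medium-chain fatty acids, and Acss2, the cytosolic acetyl-CoA synthetase, fell by 1.44 (limma-trend adjusted p = 5.07e-09) and 1.28 (adjusted p = 6.65e-08). Acsbg1, a synthetase of very long-chain fatty acids known from brain, rose by 1.39, from a mean normalized signal of 189 ± 19.5 to 503 ± 101 (SD, n = 3; limma-trend adjusted p = 3.32e-08). Thioesterases, which undo activation, also went both ways: of 9 tested, 3 fell and 1 rose. Acot4 and Acot2, of peroxisomes and mitochondria, fell with log2 fold changes of -3.09 (limma-trend adjusted p = 1.43e-09) and -1.79 (adjusted p = 1.67e-09), and Acot13 fell by 0.36 (adjusted p = 0.0237). Acot7, the brain-type acyl-CoA thioesterase, rose from a mean normalized signal of 916 to 1833 (limma-trend adjusted p = 9.80e-10).

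**Figure D3:**
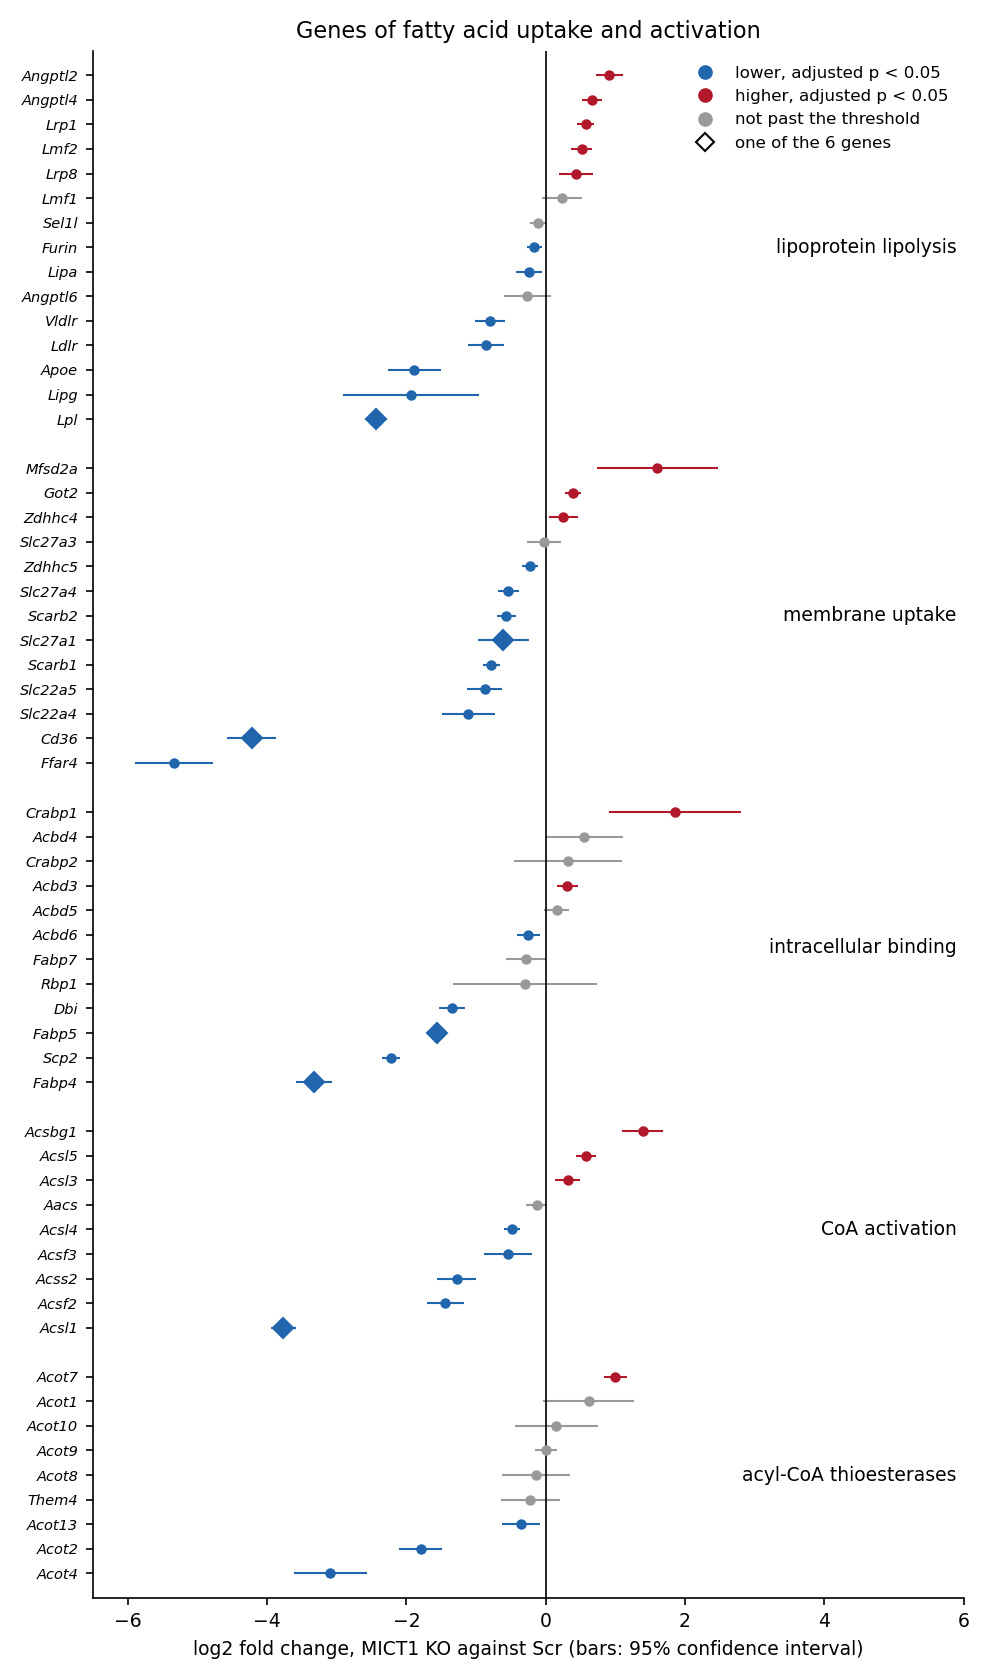
Log2 fold change of MICT1 KO against Scr with its 95% confidence interval for the 58 genes tested of the uptake and activation lists, grouped by list, with diamonds for the 6 genes; blue is lower and red higher at an adjusted p under 0.05. The 6 genes all lie to the left of 0, while genes of the same lists lie on either side, from Ffar4 at -5.33 to Crabp1 at 1.86.

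Markers of fat cells moved in the same direction as the 6 genes. All 12 adipocyte markers that were tested fell, with log2 fold changes from -6.77 to -0.95. Plin4, a coat protein of lipid droplets, had a normalized signal of 16165, 13681 and 14196 in Scr and of 1087, 965 and 1465 in MICT1 KO libraries. Cidec, which enlarges lipid droplets, had a signal of 7480, 6669 and 7879 in Scr and of 194, 81.1 and 260.2 in MICT1 KO libraries. The summed signal of the 12 markers was between 40350 and 46430 in Scr and between 4168 and 5333 in MICT1 KO libraries. Beside the fall of this sum, those of Fabp4, Acsl1 and Cd36 were of its size or greater, and those of Lpl, Fabp5 and Slc27a1 smaller. The sum is weighted to abundant markers such as Plin4 and Cidec. The median log2 fold change of the 12 markers was -4.09. This was a greater fall than that of Fabp4 (-3.33) or Acsl1 (-3.76) and close to that of Cd36 (-4.22). In RNA from a whole culture, fewer fat cells and less of these mRNAs per fat cell cannot be told apart.

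Of the 9 preadipocyte and fibroblast markers tested, 6 rose and 2 fell, namely Dlk1 (log2 fold change -3.47) and Pdgfra (-0.19), both named after their values were seen. Fn1, fibronectin, rose by 1.91 (limma-trend adjusted p = 1.10e-15) and Col1a1, a collagen chain, by 0.77 (adjusted p = 7.05e-10). The summed signal of the 11 such markers in the table was between 59252 and 67108 in Scr and between 143317 and 158221 in MICT1 KO libraries. This sum is weighted to abundant markers such as Fn1, with a mean signal of 23246.5 in Scr and 87524.9 in MICT1 KO libraries. The median log2 fold change of the 9 markers tested was 0.48. The part of the shift in these markers in the falls of the 6 genes was not tested. Markers of other cell types were low, with summed signals of at most 142 for 3 endothelial, 638 for 4 macrophage and 94.4 for 2 muscle markers in any library. Egfl7 and Cdh5, Csf1r and Des were among those listed, whereas Pecam1, Ptprc, Adgre1 and Myod1, which define those cells, were not analysed here. Of these 9 markers, 2 rose, Cdh5 from a mean signal of 8.71 to 29.9 and Cd14 from 192 to 444, and none fell.

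The label of brown fat cells was checked with 6 further genes, looked up after values of these libraries were known. Ucp1, the uncoupling protein that defines brown fat, was low, with a normalized signal of 20.8, 24.1 and 30.5 in Scr and of 1.91, 1.05 and 9.33 in MICT1 KO libraries. Ebf2, a transcription factor of brown precursors, had a signal of 74.2, 60.3 and 62.1 in Scr and of 137, 148 and 185 in MICT1 KO libraries. Ppargc1a was below 20 in every library. Only these 3 of the 6 genes had values, and the defining brown fat genes Cidea, Prdm16 and Dio2 had none and were not analysed here. The name brown adipocytes is thus taken from the study, and these values do not settle it.

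PPARγ with its partner RXRα is known to drive several of the 6 genes in fat cells. Pparg fell with a log2 fold change of -2.31 (limma-trend adjusted p = 1.69e-15), from a normalized signal of 3546, 3406 and 4276 in Scr to 802, 677 and 782 in MICT1 KO libraries. Rxra fell by 0.93 (limma-trend adjusted p = 7.77e-09), to 52.2% of its Scr mean. Whether this bears on the 6 genes was not tested.

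Since the 6 genes fell together, the DNA before their starts was read where a promoter sequence was at hand, from RefSeq on GRCm38, for Cd36, Slc27a1 and Acsl1. The stretches of Cd36 and Acsl1 end at the base before the first transcript start of that table, which for Cd36 lies inside the annotated gene. The stretch of Slc27a1 was cut at the base before the annotated start of the gene, which comes earlier, and is therefore shorter. All are written in the direction of transcription. Capitals mark the nuclear receptor hexamer AGGTCA or its reverse complement and the GC box GGGCGG. The stretches cover chr5:17835897-17836146 (minus strand, 250 bases) for Cd36, chr8:71568621-71568727 (plus strand, 107 bases) for Slc27a1 and chr8:46470787-46471036 (plus strand, 250 bases) for Acsl1. No annotated exon of the gene itself overlaps its stretch, and exons of other genes were not checked.
Cd36: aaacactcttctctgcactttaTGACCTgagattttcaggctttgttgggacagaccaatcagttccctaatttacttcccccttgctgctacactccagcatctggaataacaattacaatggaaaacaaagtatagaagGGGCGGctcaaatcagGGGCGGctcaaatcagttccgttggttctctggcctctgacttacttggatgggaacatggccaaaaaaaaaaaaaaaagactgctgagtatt
Slc27a1: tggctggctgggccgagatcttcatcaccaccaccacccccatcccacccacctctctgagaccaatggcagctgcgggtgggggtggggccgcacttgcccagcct
Acsl1: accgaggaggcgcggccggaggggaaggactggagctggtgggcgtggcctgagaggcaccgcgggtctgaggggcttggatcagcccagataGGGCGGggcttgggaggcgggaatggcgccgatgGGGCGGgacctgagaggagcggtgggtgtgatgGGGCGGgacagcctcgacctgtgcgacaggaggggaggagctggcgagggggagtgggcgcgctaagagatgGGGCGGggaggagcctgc

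The 3 stretches differ in make-up, with a GC content of 43.2% for Cd36, 67.3% for Slc27a1 and 72.0% for Acsl1. On both strands, Cd36 held 1 AGGTCA, on the opposite strand, and 2 GGGCGG in a repeated stretch, while Acsl1 held 4 GGGCGG and no AGGTCA, and the shorter stretch of Slc27a1 held neither. The cAMP response element TGACGTCA was in none of the 3, and neither was the PPAR response element DR1, which is AGGTCA, any 1 base and AGGTCA again. Of 32851 promoters of 250 bases, 14.0% held AGGTCA, 32.7% GGGCGG, 1.55% TGACGTCA and 0.0335% DR1. A match is only a match of letters in this window. Only the exact letters were sought, so a missing match does not show that a variant of an element is absent.

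Within each group the same library was lowest for most of the 6 genes. Scr replicate 2 was the lowest Scr library and MICT1 KO replicate 2 the lowest MICT1 KO library in 5 of the 6 genes, all but Slc27a1. Among the 12 adipocyte markers, Scr replicate 2 was lowest in 12 and MICT1 KO replicate 2 in 10, and the same held in 30.2% and 34.7% of all genes tested. Replicate 2 was lowest in both groups at once in 5 of the 6 genes, 10 of the 12 markers and 10.0% of all genes tested. Scr replicate 2 is also the library with the most Rn45s, whose part in this was not tested. Relative to the mean of its group on the log2 scale, MICT1 KO replicate 2 stood at -0.47 for Cd36, -0.46 for Fabp4 and -0.97 for Cidec, and MICT1 KO replicate 3 at 0.64, 0.40 and 0.70. Fabp5 stayed between -0.05 and 0.04 in all 6 libraries. When each library was left out in turn, the log2 fold change remained between -4.54 and -3.98 for Cd36, -3.53 and -3.10 for Fabp4, -3.88 and -3.67 for Acsl1, -2.52 and -2.34 for Lpl and -1.59 and -1.54 for Fabp5, all called lower.

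**Figure D4:**
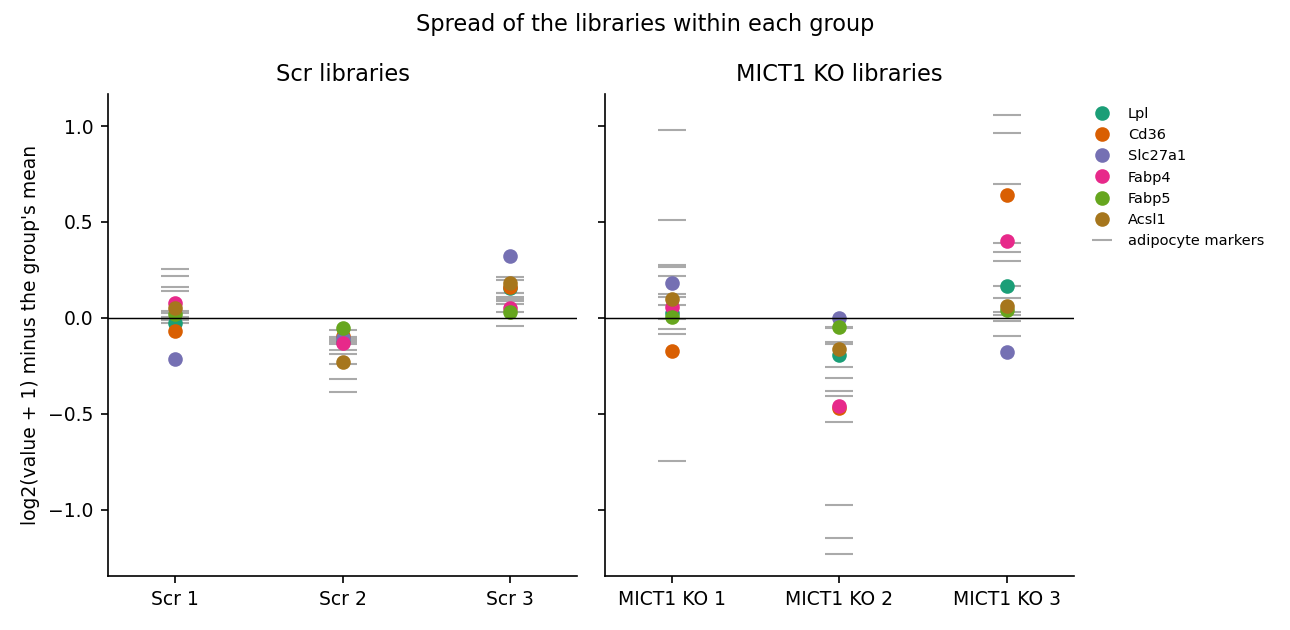
Difference of log2(value + 1) in each library from the mean of its own group, for the 6 genes (coloured points) and 12 adipocyte markers (grey bars), Scr on the left and MICT1 KO on the right. In MICT1 KO replicate 2 all 12 markers and 5 of the 6 genes lie below 0, and the spread is wider among MICT1 KO than among Scr libraries for Cd36 and Fabp4.

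Finally, the genes with the most similar profile over the 6 libraries were sought for each member, by Pearson's r of log2(value + 1) among 9922 tested genes with a mean signal of at least 100. Since the libraries form 2 groups, r mostly reads the difference between them, and it is given as a description. The closest were Cebpa, Cav2 and Acer2 to Lpl, Wdr60, Txndc12 and Mtus1 to Cd36, Mgst1, Ndufv1 and Septin9 to Fabp4, Plxnd1, Cavin1 and Acaa1a to Fabp5, and Mpc2, Dysf and Abhd5 to Acsl1, each with r above 0.999. Slc27a1 was closest to Zfp710, Alad and Nfyc, with r of at most 0.996. An r above 0.99 was reached by 234 genes for Cd36 and by 402 for Fabp5 but by 5 for Slc27a1.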

How the data were processed

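Total RNA of 6 cultures (3 Scr, 3 MICT1 KO) was sequenced. The submitters' processing notes name Partek, STAR, DESeq2 and GRCm38/mm10, while the counting model and the annotation are not given in the sources used here. The table the authors deposited holds a normalized signal per gene, estimated reads divided by a size factor: of values below 20, 88.7% to 90.2% were whole multiples of a step of the library, with a tolerance of 0.01. Since not nearly all values gave whole reads, no count test was used. The test was limma-trend on log2(value + 1) (limma 3.58.1, R 4.3.3) over the 12507 genes that reached 10 in 3 or more libraries, with Benjamini-Hochberg adjustment over these genes and a threshold of 0.05. The functions were tested on simulated data. RPKM used GENCODE vM21 lengths (13148 genes, 99%, and 12520 with a protein-coding transcript, a length chosen after the data were seen) and the sum of each library's values. Positions and promoters are from RefSeq on GRCm38, and copies were sought with blastn 2.17.0.

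Genes named are the 6 members, their Slc27a, Fabp and Acsl relatives, Gpihbp1, Lmf1 and Angptl4, Pparg and Rxra, the 3 largest rises and falls called in each of 5 lists, the most abundant markers, genes beside Fabp4 and Fabp5 and the 3 closest profiles per member. The members and lists were chosen with earlier results of these data known. Of the 101 genes of the lists, 62 are in the table and 58 passed the filter on low values, all 6 members among them. Alternatives were other scalings, limma-voom, pseudocounts of 0.5 and 5, other filters, other calls, other lengths, the replicate number as a block and each library left out. Groups of 3 libraries were too small for a test of outlying samples.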

Additional observations from a re-analysis of the deposited data

How the results depend on the processing

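The falls of Cd36, Fabp4, Fabp5, Lpl and Acsl1 kept their direction and passed the threshold in all 14 alternative fits each. Slc27a1 did so in 12 of 13, the exception being the fit without Scr replicate 3 (-0.45, limma-trend adjusted p = 0.0592), and was not tested with a maximum RPKM of at least 4. With single libraries left out its log2 fold change ranged from -0.71 to -0.45, members called lower from 5 to 6, list genes called lower from 27 to 29 and higher from 13 to 15, and all genes called lower from 3114 to 3344 and higher from 3269 to 3334. With at least 1.8-fold and an unadjusted p under 0.05, 17 list genes were lower and 5 higher (29 and 14 in the analysis reported) and 924 and 1265 of all genes (3544 and 3569). With an adjusted p under 0.05 and at least 2-fold the counts were 15 and 4, and 720 and 999. These calls are stricter by construction. Over all genes tested, the replicate numbers did not pair the libraries (correlations of deviations of -0.02, -0.02 and 0.06 for numbers 1 to 3). With the replicate number as a block all 6 genes were called lower, Slc27a1 at -0.61 (limma-trend adjusted p = 0.00759), with 29 list genes lower and 15 higher and 3512 and 3543 of all genes. The block lowered the SE of Cd36 (0.17 to 0.11), Fabp4 (0.12 to 0.081), Acsl1 (0.085 to 0.062) and Lpl (0.077 to 0.059). It did not lower that of Fabp5 (0.061 to 0.064) or Slc27a1 (0.177 to 0.185). The median log2 fold change of all genes stayed between -0.02 and 0.00 in all settings. The lowest read numbers behind the 6 genes were 103 to 227 per library for Slc27a1 and 137 to 302 for Cd36 in MICT1 KO libraries.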

Other observations

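Fabp5 and Fabp4 lie 188 kb apart on chromosome 3 (GRCm38), with 4 annotated genes between them. Of 6 other genes tested within 600 kb of them, 1 fell, 1 rose and 4 did not pass the test. Gm9833, between them, had a mean normalized signal of 594 in Scr and 700.4 in MICT1 KO libraries (log2 fold change 0.24, limma-trend adjusted p = 0.0226). Impa1, the nearest gene with values beyond Fabp4, which encodes an inositol monophosphatase, went from 1127 to 1273 (log2 fold change 0.18, limma-trend adjusted p = 0.0695), and Pag1, on the other side of Fabp5, from 76.1 to 95.3 (0.34, adjusted p = 0.238). Zfp704, farther out beyond Pag1, fell from 260.0 to 143 (log2 fold change -0.87, limma-trend adjusted p = 0.000106). Zfand1, at 48.0 and 50.1, and Snx16, at 229 and 256, did not pass the test, with log2 fold changes of 0.03 (limma-trend adjusted p = 0.948) and 0.16 (adjusted p = 0.295). Zfp704, Zfand1 and Snx16, which do not lie directly beside Fabp4 or Fabp5, were named after their values were seen. Fabp4 and Fabp5 themselves had log2 fold changes of -3.33 and -1.57.

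Some genes with profiles closest to the members act in fat metabolism: Cebpa, a transcription factor of fat cell differentiation, went from a mean normalized signal of 8019 in Scr to 991 in MICT1 KO libraries, Abhd5, the activator of adipose triglyceride lipase, from 4041 to 1391, Mpc2, a subunit of the mitochondrial pyruvate carrier, from 1280 to 386, and Cavin1, which shapes the caveolae in which CD36 resides, from 18115 to 8385. These genes were picked for their likeness to the members, so their falls are a description.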
